A study of Mus musculus with 2 samples.

Results

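Among the immune cells of mouse B16.SIY melanomas, natural killer (NK) cells that carried transcripts of Ctla2a, with little Xcl1 and no detected Klrg1, numbered 1478 of 20877 cell barcodes. They were chosen on raw counts of unique molecular identifiers (UMIs), each of which marks 1 captured RNA molecule. Barcodes entered if they held 500 UMIs or more, with mitochondrial genes giving no more than 10% of them. NK-gated cells had at least 1 UMI of Ncr1 and Klrb1c together, none of Cd3e, Cd3d, Cd8b1 or Cd79a, and at most 2 of Lyz2. Of the 4586 NK-gated cells, the Ctla2a+ NK cells described here were those with no UMI of Klrg1, Mki67 or Top2a, fewer than 2 of Xcl1 and at least 1 of Ctla2a. The rule was made from these counts, so the levels of its 12 genes describe the choice and were tested in no way. Every other gene was measured in the same cells, and its values are likewise descriptions.

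Live CD45+ cells were sorted from subcutaneous tumours of B6 mice on day 14, after enzymatic digestion and a density gradient. The tumour line, B16.SIY, is a derivative of mouse melanoma B16 with a model antigen. The tumour cells, not the host's immune cells, carried lentiviral shRNA, either a control or one that targets Decr2, and both had been selected with puromycin at 1.5 µg/mL for 3 days. Decr2 encodes a peroxisomal enzyme that acts on unsaturated fatty acids. Each group was 1 library, how many mice it pooled was not stated, and no test between conditions was possible. All intervals below are 95% intervals and cover counting error only.

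NK cells are innate lymphocytes that kill with perforin and granzymes and secrete interferon gamma and chemokines. In the mouse they mature from CD27+ cells, which express Tcf7, Emb and Ltb, to CD11b+ and KLRG1+ cells, which express Zeb2, S1pr5 and more granzyme. Ctla2a encodes CTLA-2 alpha, a protein related to the propeptide of cysteine proteases that inhibits cathepsin L. Xcl1 encodes the chemokine that attracts XCR1+ dendritic cells, and Klrg1 an inhibitory receptor that binds cadherins. Myb is a transcription factor of progenitors and lymphocytes, Car2 is carbonic anhydrase II, and Sult2b1 is a sulfotransferase of cholesterol and other sterols.

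Ctla2a has a close neighbour copy, Ctla2b, and reads could be divided between them by the counting, so the level of each is uncertain. On the GRCm38 assembly Ctla2a lies on chromosome 13 from 60934155 to 60936625. The 250 bases before the RefSeq start (GRCm38.p6, minus strand) of each copy are shown because the copies were also detected in the same NK cells. Ctla2a is at chr13:60936626-60936875 and Ctla2b at chr13:60897448-60897697. Capitals mark CAGAC, or GTCTG on the other strand, the letters bound by SMAD proteins of the TGF-beta pathway.
Ctla2a: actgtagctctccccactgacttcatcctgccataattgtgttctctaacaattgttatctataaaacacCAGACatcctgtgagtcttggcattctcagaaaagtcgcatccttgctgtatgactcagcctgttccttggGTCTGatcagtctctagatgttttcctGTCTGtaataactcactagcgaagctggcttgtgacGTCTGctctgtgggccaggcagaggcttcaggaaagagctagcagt
Ctla2b: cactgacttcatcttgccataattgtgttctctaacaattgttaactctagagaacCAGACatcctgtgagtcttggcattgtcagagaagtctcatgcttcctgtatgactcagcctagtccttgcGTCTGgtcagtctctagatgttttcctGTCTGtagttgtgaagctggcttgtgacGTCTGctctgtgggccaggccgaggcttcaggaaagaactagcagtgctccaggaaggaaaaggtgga
The windows held 209 identical bases in 272 aligned columns (76.8%), and each held 4 of these matches. Of 32851 promoter windows of the same length, 42.2% held at least 1 match and 0.475% at least 4. A match is a string of letters and not a measured binding site. The window before the first listed start of Sult2b1, and that before its second start, held none. GGTGTGA, a T-box motif searched on both strands, was found once before the Myb start and in 3.33% of all windows. The windows of Ctla2a, Ctla2b and Sult2b1 held none. AACGG, a MYB motif found in 14.5% of all windows, was in none of the windows of these genes or of Myb.

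The Ctla2a+ NK cells numbered 900 (control library) and 578 (knockdown library). The libraries held 11335 and 9542 barcodes with 47538493 and 55417986 UMIs, of which 9872 and 7462 barcodes were kept. Knockdown cells were deeper: the median Ctla2a+ NK cell had 2370.5 UMIs and 1108 genes in the control library, against 3370.5 UMIs and 1438.5 genes in the knockdown library. Their median mitochondrial share was 2.29% and 2.34%. The libraries shared 34 barcodes, of which 3 were Ctla2a+ NK cells in either library and 1 in both. Taking the shared barcodes out left 897 and 577 cells, and no number of genes counted below then moved by 1.5 times.

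The NK label was checked against genes that the rule had not used. All 14 genes of an NK list, among them Klrd1, Nkg7, Eomes, Tbx21, Gzma and Prf1, had UMIs in both libraries, and together they reached 22075 CPM (UMIs of a gene scaled to a common total per group) in the control and 22575 CPM in the knockdown Ctla2a+ NK cells. The same list gave 3901 and 3602 CPM in T-gated cells, which had at least 2 UMIs of the CD3 and Cd8b1 genes and none of the NK genes. It gave 6290 and 6247 CPM in myeloid-gated cells, which had at least 5 UMIs of Lyz2. Of the other NK groups, defined below, Ctla2a-negative cells had 30643 and 28042 CPM and Klrg1+ cells 28375 and 29646 CPM. Xcl1-high cells had 17533 and 17380 CPM and cycling cells 15793 and 16502 CPM. Eomes, the transcription factor that separates NK cells from type 1 innate lymphoid cells, stood at 306 and 352 CPM against 54.3 and 47.5 CPM in T-gated cells. Markers of type 2 and type 3 innate lymphoid cells were low, at 97.7 and 103.9 CPM in sum for the former and 14.8 and 12.8 CPM for the latter.

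T cell transcripts were also present. Of 11 T cell genes outside the rule, 10 were seen in control and 11 in knockdown Ctla2a+ NK cells, and they summed to 1361 and 1341 CPM against 4950 and 4674 CPM in T-gated cells. Cd3g, a CD3 chain, had a UMI in 7.44% and 14.0% of Ctla2a+ NK cells against 92.0% and 92.3% of T-gated cells. Trac, the T cell receptor alpha constant region, was 23.6 and 24.1 CPM against 540 and 504 CPM. Trbc1 went the other way, with a UMI in 67.9% and 72.3% of Ctla2a+ NK cells and 55.7% and 62.6% of T-gated cells. A wider T cell exclusion, which also removed cells with a UMI of Cd3g, Trac, Trbc1, Trbc2, Cd8a or Cd4, left 172 and 71 cells, and a result that it reversed is given with that result or with the settings. Monocyte and macrophage genes summed to 590 and 537 CPM, B cell genes to 126 and 158 CPM and melanoma genes to 395 and 368 CPM, and their part in the results was not tested.

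The Ctla2a+ NK cells were 9.12% (8.56 to 9.70) of the kept control cells and 7.75% (7.15 to 8.38) of the kept knockdown cells, a difference of -1.37 percentage points (-2.20 to -0.534). Of NK-gated cells they were 32.8% and 31.3%, and of those without Mki67 or Top2a UMIs 38.9% (36.9 to 41.0) and 39.5% (37.0 to 42.1). The last difference was 0.564 points (-2.62 to 3.77), so the lower share among all cells was not seen among non-cycling NK cells. The share depends on depth, because the rule needs zeros of some genes and a UMI of another. With each cell thinned to 1000 UMIs before the gate, the shares of all cells deep enough were 8.25% of 9389 and 7.90% of 7001. With 2000 UMIs they were 9.66% and 10.7%, and the difference turned to 1.01 points. Only 457 of the 775 control cells and 240 of the 553 knockdown cells that passed after thinning to 1000 UMIs were also chosen at full depth.

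**Figure D1:**
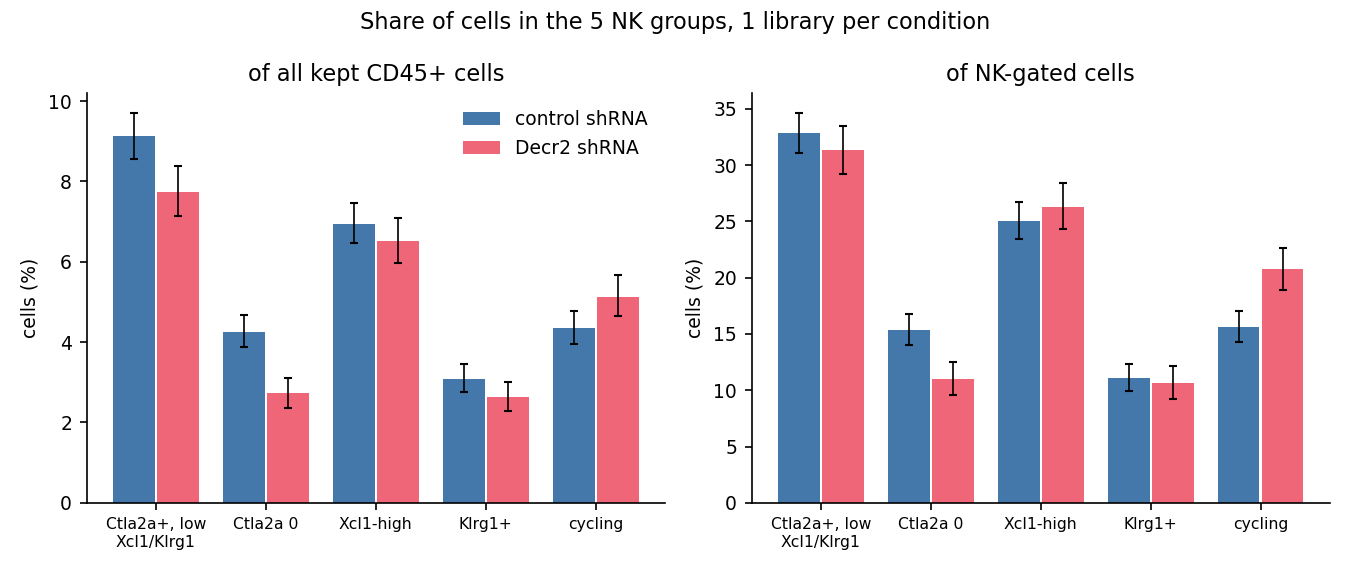
Share of cells in each of the 5 NK groups that do not overlap, as a percentage of all kept cells (left axis panel) and of NK-gated cells (right panel), with 1 library per bar and exact Clopper-Pearson 95% intervals. The Ctla2a+ NK cells were the largest of the 5 groups in both libraries, at 32.8% and 31.3% of NK-gated cells, and the cycling group stood at 15.7% and 20.7%. The cycling share also depends on depth. With the gate after thinning to 1000 UMIs it was 6.20% and 6.77% of NK-gated cells, and with 2000 UMIs 12.3% and 11.7%.

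The NK-gated cells outside the rule were divided, without overlap, into 4 groups. Cycling cells had Mki67 or Top2a (429 control and 383 knockdown cells), Klrg1+ cells had Klrg1 (305 and 196), Xcl1-high cells had at least 2 UMIs of Xcl1 (686 and 486), and Ctla2a-negative cells differed from the Ctla2a+ NK cells in having no Ctla2a (420 and 203). Median UMIs per cell were 1978 and 2619 in the Ctla2a-negative group, which was the shallowest, 2629 and 3850.5 in the Xcl1-high group and 2497 and 3397.5 in the Klrg1+ group.

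To see how far the rule reflects cells and not chance sampling of single UMIs, the UMIs of each cell were divided at random into equal parts. The gate was applied to 1 part and levels were read in the other. This gate chose other sets of cells than the full counts: 858 control and 666 knockdown Ctla2a+ NK cells, and 725 and 373 Ctla2a-negative cells. Group names beside held-out levels refer to these sets. Held-out Ctla2a was 1442 CPM (1376 to 1511) in the control and 1612 CPM in the knockdown Ctla2a+ NK cells. It was 1262 and 1477 CPM in Xcl1-high cells, 617 and 731 CPM in Klrg1+ cells and 441 and 276 CPM in Ctla2a-negative cells. Ctla2a was therefore almost as high in Xcl1-high cells as in the cells chosen for it. Cells chosen for its absence in 1 part of their UMIs still held it in the other part.

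Held-out Xcl1 was 406 and 293 CPM in the Ctla2a+ NK cells against 1953 and 1681 CPM in Xcl1-high cells. Held-out Klrg1 was 35.9 and 32.6 CPM against 158.5 and 137 CPM in Klrg1+ cells. The remaining groups, in the order Ctla2a-negative, Klrg1+ and cycling, had 324, 278 and 579 CPM of Xcl1 in the control and 177, 488 and 777 CPM in the knockdown library. Klrg1 was 105 and 77.4 CPM in Ctla2a-negative, 24.6 and 22.9 CPM in Xcl1-high and 53.9 and 71.3 CPM in cycling cells. The Ctla2a+ NK cells were thus below the group chosen for each gene but not the lowest of the 5 groups in either.

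Sult2b1 was read the same way at 63.7 CPM (50.3 to 79.4) in the control and 67.5 CPM (54.2 to 83.1) in the knockdown Ctla2a+ NK cells. The other 4 NK groups ranged from 21.4 to 38.4 CPM in the control and from 23.6 to 43.4 CPM in the knockdown library, below the Ctla2a+ NK cells in both. Another random division gave 56.2 and 70.3 CPM in the Ctla2a+ NK cells, with 31.2 to 41.0 CPM in the other control and 14.1 to 51.8 CPM in the other knockdown groups, where Klrg1+ cells went from 43.4 to 14.1 CPM. Held-out Myb was 97.1 CPM (80.5 to 116) and 106.9 CPM, with 49.1 and 90.6 CPM in Xcl1-high cells and 39.5 and 50.5 CPM in Ctla2a-negative cells. In the other division Myb was 76.5 CPM, below the first interval, and 101 CPM. Xcl1-high cells then had 57.0 and 81.1 CPM and Ctla2a-negative cells 47.6 and 47.0 CPM. Held-out Car2 was 353 CPM (321 to 388) and 417 CPM (383 to 453) in the Ctla2a+ NK cells and 344 and 429 CPM in Xcl1-high cells. It was lower in Ctla2a-negative cells, at 244 CPM (212 to 280) and 274 CPM (234 to 320). At an equal depth of 1000 UMIs Car2 was detected in 28.2% of control Ctla2a+ NK cells, 28.6% of Xcl1-high cells, 1.50% of T-gated and 0.714% of myeloid-gated cells.

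**Figure D2:**
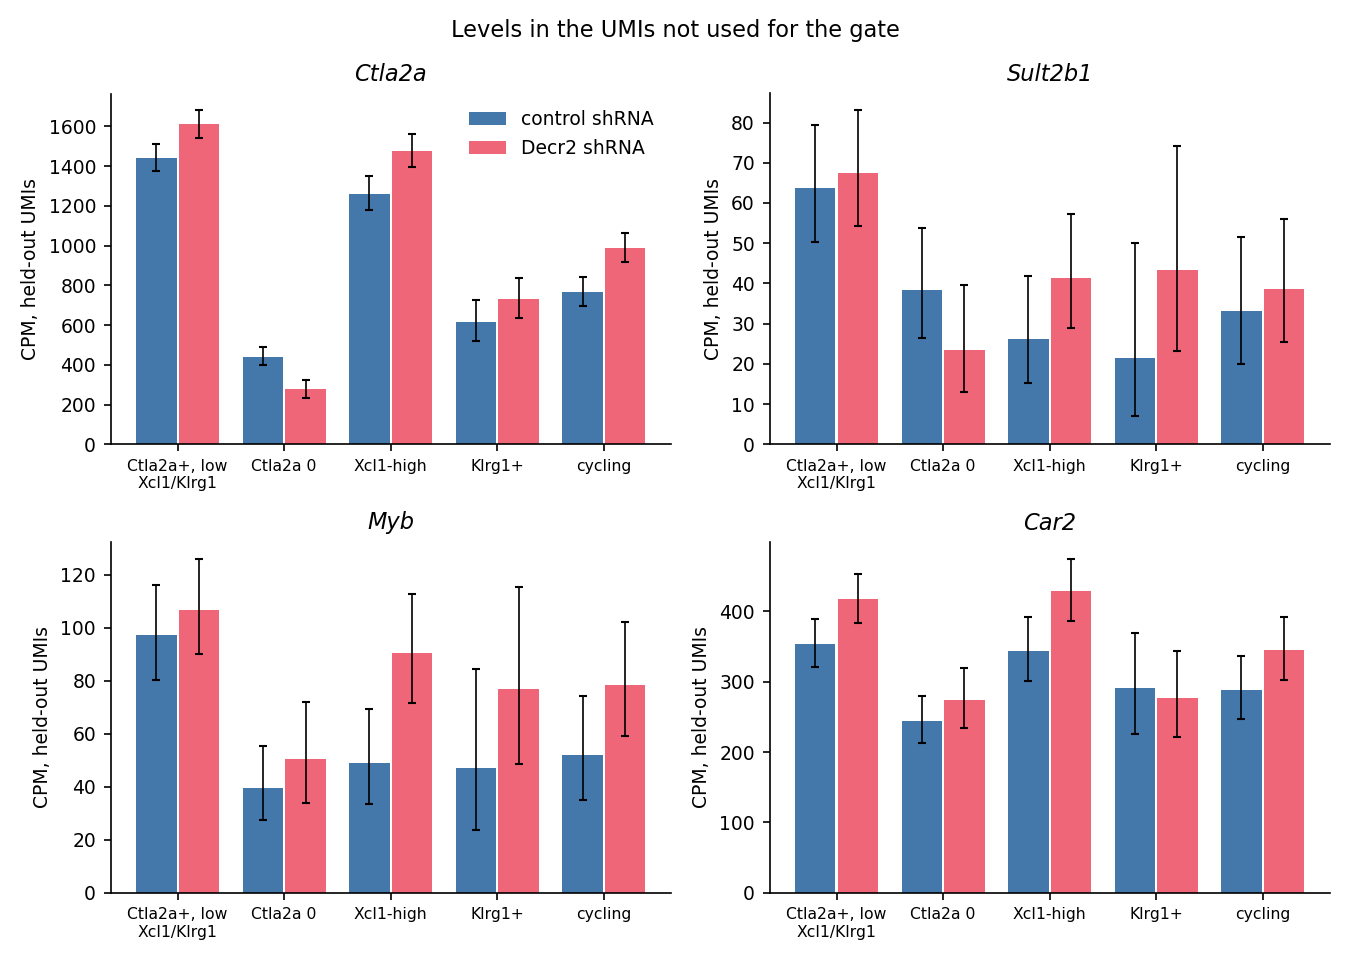
Levels of Ctla2a, Sult2b1, Myb and Car2 in CPM, read from the UMIs of each cell that were not used for the gate, in the 5 NK groups of each library, with exact Poisson 95% intervals on 1 library per bar. Ctla2a was 1442 and 1612 CPM in the Ctla2a+ NK cells and 1262 and 1477 CPM in Xcl1-high cells, whereas Car2 differed little between those groups.

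Equal depth also showed how sparse the marker genes were. Among cells thinned to 1000 UMIs, Ctla2a was detected in 75.7% of control and 71.7% of knockdown Ctla2a+ NK cells (all of them at full depth, by the rule). It was detected in 63.0% and 64.7% of Xcl1-high cells, in 28.7% and 29.8% of T-gated cells and in 1.90% and 3.65% of myeloid-gated cells. Sult2b1 was detected in 5.43% (4.03 to 7.14) and 6.54% (4.64 to 8.90) of Ctla2a+ NK cells at that depth, and in 11.9% and 17.1% of them unthinned. Xcl1-high cells gave 3.38% and 4.74% and myeloid-gated cells 0.119% and 0.166%. Myb was detected in 6.33% and 9.01% against 6.90% and 7.22% of Xcl1-high cells, which was no ordered difference between these groups. At least 1 of Sult2b1, Myb, Pmepa1 and Car2 was found in 39.8% (36.6 to 43.1) of 884 control Ctla2a+ NK cells and 31.6% of 1369 other non-cycling NK cells. In the knockdown library it was 43.8% (39.7 to 48.0) of 566 against 41.8% of 857. Pmepa1 was taken from the comparison of these same cells below, and the others were given as markers of the group. These shares therefore describe the choice of genes as well as the cells.

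The Ctla2a+ NK cells were then compared with all other non-cycling NK-gated cells, gene by gene, within each library. A gene was called when summed levels differed at least 1.5-fold in the same direction in both libraries. Of 2814 genes compared, 4 were higher (0.142%) and 7 lower (0.249%) in the Ctla2a+ NK cells, 0.391% in all. The higher genes were Sult2b1, Myb, Pmepa1 and Qrfp. The lower ones were Gzmc, Ms4a4c, Cxcl10, Cd74, S100a4, Klrc1 and Icam1. A gene entered with 50 CPM on 1 side, so it could enter through the side where it is high. Sult2b1 and Qrfp in both libraries, and Pmepa1 in the control, reached 50 CPM only in the Ctla2a+ NK cells. Ms4a4c and Cxcl10 in both libraries, and Gzmc in the control, reached it only in the other cells.

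Sult2b1 (chromosome 7, 45729983 to 45784669) was 64.1 CPM in the control and 74.9 CPM in the knockdown Ctla2a+ NK cells, and 33.5 and 37.7 CPM in the other non-cycling NK cells. These were ratios of 1.91 (1.50 to 2.45) and 1.99 (1.56 to 2.53). Myb (chromosome 10, 21124935 to 21160984) was 89.0 and 116 CPM against 53.8 and 69.2 CPM, at ratios of 1.65 (1.35 to 2.02) and 1.67 (1.39 to 2.01). Both markers were higher in each library. Pmepa1, a TGF-beta target that dampens SMAD signalling, was 79.0 and 109 CPM against 45.7 and 67.5 CPM, with ratios of 1.73 (1.39 to 2.14) and 1.61 (1.34 to 1.95). Qrfp, which encodes a neuropeptide precursor, was 51.0 and 65.5 CPM against 33.3 and 42.9 CPM. With the gate applied after thinning to 1000 UMIs, Sult2b1 alone passed, at 1.82 and 1.88, whereas Myb stood at 1.26 and 1.53, Pmepa1 at 1.42 and 1.83 and Qrfp in the knockdown library at 0.977.

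Further genes were higher by less than 1.5-fold in at least 1 library. The Ly49 receptor gene Klra4 was 774 and 964 CPM against 595 and 644 CPM. It belongs to a family of near copies, between which the counting could divide reads. Cxcr4, the receptor for CXCL12, was 188 and 268 CPM against 143 and 183 CPM, and Eomes was 306 and 352 CPM against 235 and 283 CPM. Stat3 was 308 and 364 CPM against 241 and 285 CPM, and the chemokine receptor gene Ccr2 was 522 and 455 CPM against 382 and 365 CPM. Each of these ratios had an interval above 1 in both libraries. Ctla2b was 282 and 297 CPM against 224 and 246 CPM, at ratios of 1.26 (1.13 to 1.40) and 1.21 (1.09 to 1.34). Car2 was 375 and 388 CPM against 330 and 388 CPM, a ratio of 1.14 (1.04 to 1.24) in the control and 1.00 (0.915 to 1.09) in the knockdown library.

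Among the lower genes, Klrc1, which encodes the inhibitory receptor NKG2A, was 121 and 101 CPM in the Ctla2a+ NK cells and 181 and 165 CPM in the others. Icam1, the ligand of the integrin LFA-1, was 85.9 and 102 CPM against 133 and 157 CPM. S100a4, a calcium-binding protein, was 184 and 124 CPM against 286 and 218 CPM. The chemokine gene Ccl4, at 1139 and 1131 CPM against 1900 and 1600 CPM, had ratios of 0.600 and 0.707 and was called in the control library alone. These genes were thus lower at many UMIs in both libraries. With the wider T cell exclusion the control ratio of Klrc1 was 1.10, and Icam1 in the knockdown library stood at 0.885.

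Gzmc, Cd74 and Cxcl10 rested in part on few cells. Gzmc, a granzyme of strongly stimulated killer cells, was 45.4 and 83.7 CPM against 284.5 and 134.6 CPM, and 1 knockdown cell held 40.0% of its UMIs. Cd74, the invariant chain of MHC class II, was 233 and 200 CPM against 436 and 341 CPM, with 26.8% and 50.9% of the UMIs in 1 cell of each library. Only 8 control and 5 knockdown Ctla2a+ NK cells had 5 or more Cd74 UMIs. Without such cells in either group, an alternative chosen after the data had been seen, Cd74 ratios were 0.879 and 0.844 and 3 genes in place of 7 were called lower. With at least 2 UMIs of Ncr1 and Klrb1c asked for, the Cd74 ratios turned to 1.12 and 1.62. Cxcl10, a chemokine gene induced by interferon, was 42.7 and 35.0 CPM against 77.6 and 82.4 CPM, with 26.5% and 25.4% of the UMIs in 1 cell, and its control ratio turned to 1.09 under the same setting. Ms4a4c, which encodes a membrane protein, was 33.6 and 36.0 CPM against 69.8 and 78.9 CPM, and its knockdown ratio was 1.16 when the gate followed thinning to 1000 UMIs.

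**Figure D3:**
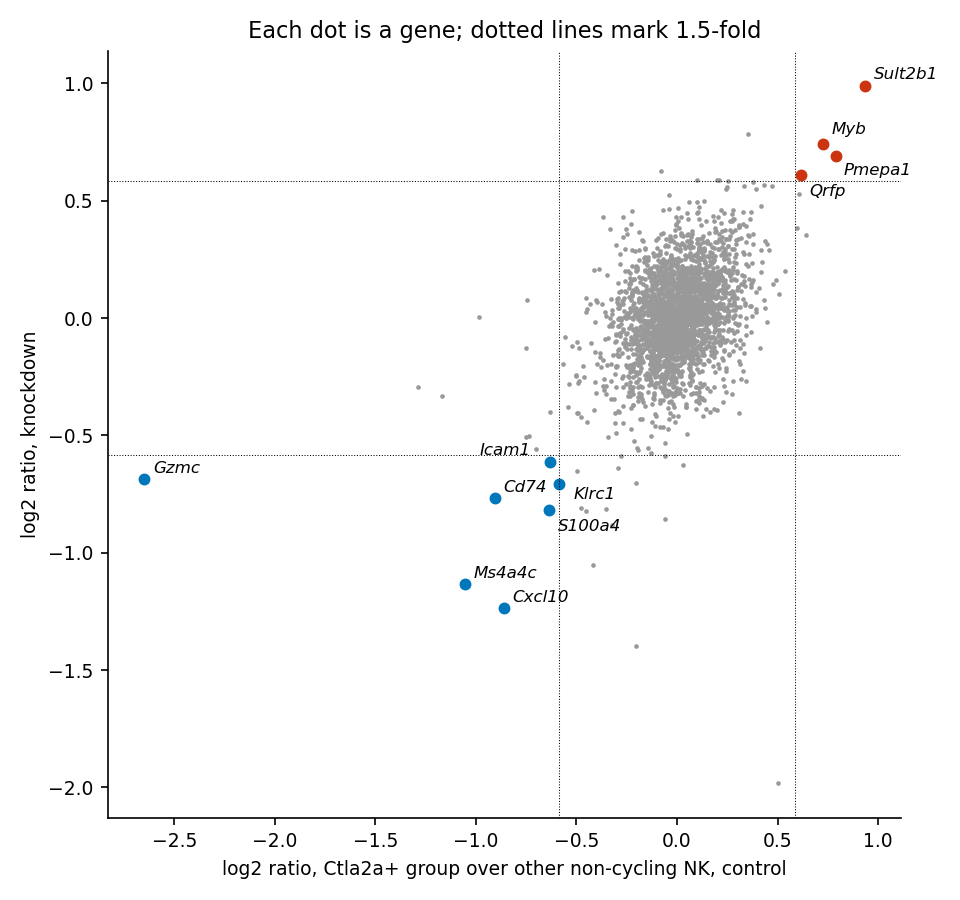
Log2 ratio of summed CPM in Ctla2a+ NK cells over all other non-cycling NK-gated cells, control library on the x axis and knockdown library on the y axis, 1 dot per gene. The 4 genes past 1.5-fold higher in both libraries are red, the 7 lower ones blue, and most of the 2814 genes lie within the dotted 1.5-fold lines. The libraries are separate tumours, but the groups on both axes come from the same rule.

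Set beside each group singly, the Ctla2a+ NK cells lay between the Xcl1-high cells and the Klrg1+ cells in most genes of the maturation lists. Against Xcl1-high cells, 6 of 2800 genes were higher (0.214%) and 12 lower (0.429%), 0.643% in all. Against Klrg1+ cells, 18 of 2843 were higher (0.633%) and 21 lower (0.739%), 1.37% in all. A gene can enter these comparisons through the group where it is high, so the lists were counted over genes with at least 50 CPM in both groups and both libraries, a limit chosen after the data had been seen. Of 7 such genes of an immature NK list, 6 were lower than in Xcl1-high cells in both libraries (median log2 ratio -0.36 and -0.37, against 0.01 and 0.03 over 2498 genes), and 6 were higher than in Klrg1+ cells (0.58 and 0.34, against 0.01 and 0.00 over 2417 genes). Of a mature NK list, 7 of 8 were higher than in Xcl1-high cells (0.32 and 0.58), and all 10 were lower than in Klrg1+ cells (-0.72 and -0.62). Klrg1 of the mature list, and Xcl1 and Ctla2a of the immature list, were used by the rule and were not counted. The groups were chosen on those genes, so their order in the remaining genes may in part reflect that choice, which was not tested. The lists were chosen with earlier results of these data known, and their medians are descriptions.

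Tcf7, which encodes the transcription factor TCF-1 of early lymphocytes, was 98.1 and 128 CPM in the Ctla2a+ NK cells. It was 143 and 179 CPM in Xcl1-high cells and 52.2 and 62.8 CPM in Klrg1+ cells. Its level against Klrg1+ cells was 1.88-fold (1.36 to 2.65) and 2.04-fold (1.49 to 2.84). Emb, an adhesion glycoprotein of immature NK cells, was 446 and 496 CPM, against 533 and 608 CPM in Xcl1-high and 170 and 169 CPM in Klrg1+ cells. Emb was nearer to the Xcl1-high level than to the Klrg1+ level in both libraries, and Tcf7 lay about midway in the control library. Ltb, which encodes lymphotoxin beta, was 239 and 220 CPM against 455 and 464 CPM in Xcl1-high cells, a ratio of 0.527 (0.473 to 0.587) and 0.475 (0.423 to 0.532). It was 109 and 178 CPM in Klrg1+ cells. Cxcr3, the receptor for interferon-induced chemokines, was 68.9 and 50.2 CPM, 95.2 and 77.5 CPM in Xcl1-high cells and 25.5 and 30.1 CPM in Klrg1+ cells.

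The genes of mature NK cells ran in the opposite order. Zeb2, a transcription factor needed for terminal NK maturation, was 166 and 205 CPM in the Ctla2a+ NK cells, 146 and 133 CPM in Xcl1-high cells and 287 and 307 CPM in Klrg1+ cells. S1pr5, the receptor by which mature NK cells leave lymph nodes and marrow, was 19.2 and 26.1 CPM against 78.8 and 68.0 CPM in Klrg1+ cells, at ratios of 0.243 (0.163 to 0.361) and 0.384 (0.257 to 0.574). Cma1, a chymase gene expressed by mature NK cells, was 65.9 and 74.9 CPM, against 36.4 and 34.9 CPM in Xcl1-high and 189 and 208 CPM in Klrg1+ cells. Itgam, the CD11b gene, was 99.9 and 105 CPM, against 72.7 and 65.4 CPM and against 166 and 154 CPM.

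Gzma, Gzmb and Prf1 followed the same order. Gzma was 9565 and 10232 CPM in the Ctla2a+ NK cells, 5878 and 5867 CPM in Xcl1-high cells and 14507 and 15334 CPM in Klrg1+ cells. Its ratio to Xcl1-high cells was 1.63 (1.59 to 1.66) and 1.74 (1.71 to 1.78). Gzmb was 1165 and 1206 CPM, against 762 and 691 CPM in Xcl1-high and 1848 and 2060 CPM in Klrg1+ cells. The intermediate position was thus the same in both libraries for these 2 granzymes. Gzmc did not lie between, at 45.4 and 83.7 CPM against 249.9 and 121 CPM in Xcl1-high and 642 and 256 CPM in Klrg1+ cells. Prf1, perforin, was 820 and 821 CPM, against 648 and 599 CPM and against 1392 and 1393 CPM. With the gate applied after thinning to 1000 UMIs, Gzmb in the knockdown library was 1.07-fold that of Xcl1-high cells, and with the wider T cell exclusion the control ratio was 0.995. Of 12 compared cytotoxic effector genes, 7 were higher and 4 lower in both libraries than in Xcl1-high cells.

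The Ctla2a-negative cells, which differ from the Ctla2a+ NK cells by 1 gene of the rule, lay on the Klrg1+ side of the Ctla2a+ NK cells in these genes. Gzma stood at 16183 and 14739 CPM, Zeb2 at 332 and 415 CPM, Tcf7 at 39.7 and 52.1 CPM and Emb at 198 and 178 CPM. Against them, 21 of 2888 genes were higher (0.727%) and 36 lower (1.25%) in the Ctla2a+ NK cells, 1.97% in all. Over genes with 50 CPM in both groups, all 6 of the immature list were higher (median log2 ratio 0.82 and 0.92) and all 10 of the mature list lower (-0.82 and -0.86), against -0.02 and -0.04 over 2455 genes. Ctla2a, which is on the immature list and divides these groups, was not counted. Myb was 29.5 and 25.2 CPM in Ctla2a-negative cells, and Ctla2b was 1.63-fold (1.36 to 1.95) and 2.08-fold (1.66 to 2.65) higher in the Ctla2a+ NK cells. Ctla2a-negative cells were also the shallowest, and the part of depth in this difference was not tested. A dendritic cell list of 11 genes summed to 1776 and 2860 CPM in them, with 11 and 9 genes seen and Xcr1 and Clec9a at 0 in the knockdown library, against 466 and 512 CPM in the Ctla2a+ NK cells. H2-Aa, H2-Ab1, H2-Eb1 and Cd74 were among the 36 lower genes. Without cells with 5 or more Cd74 UMIs none of these 4 was called, 19 genes were higher and 31 lower, and Gzma stood at 0.574 and 0.618, Zeb2 at 0.486 and 0.443 and Tcf7 at 2.34 and 2.21. Monocyte and macrophage genes summed to 569 and 1112 CPM in Ctla2a-negative cells, and their part was not tested.

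**Figure D4:**
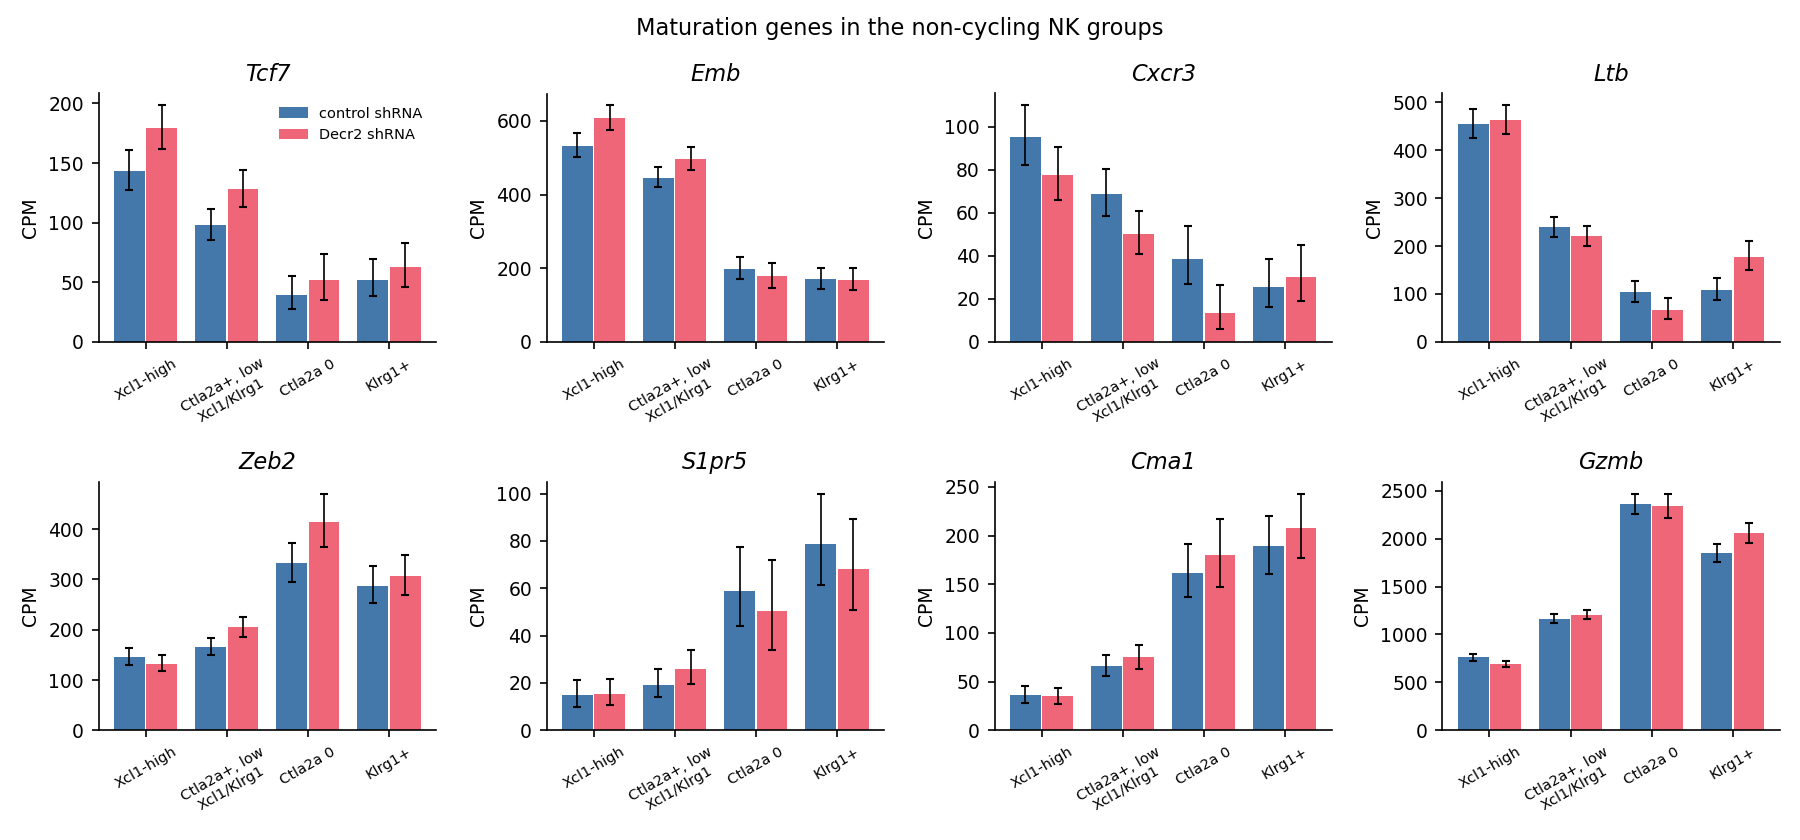
Summed level in CPM of 4 genes of early NK cells (top row: Tcf7, Emb, Cxcr3, Ltb) and 4 of mature ones (bottom row: Zeb2, S1pr5, Cma1, Gzmb) in the 4 non-cycling NK groups, by library, with exact Poisson 95% intervals. The Ctla2a+ NK cells lie between the Xcl1-high and Klrg1+ cells in all 8 genes, and the Ctla2a-negative cells on the Klrg1+ side of the Ctla2a+ NK cells.

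Some genes outside the maturation lists also differed in level between the Ctla2a+ NK cells and Xcl1-high cells. Gpr183, an oxysterol receptor that guides lymphocytes in tissue, was 22.2 and 9.36 CPM against 79.4 and 53.3 CPM, at ratios of 0.280 (0.200 to 0.387) and 0.176 (0.102 to 0.287). Cd160, a receptor for HVEM, was 69.8 and 45.8 CPM against 129 and 102 CPM, and Rora, a transcription factor of innate lymphoid cells, was 27.0 and 31.5 CPM against 53.8 and 73.6 CPM. All were lower in both libraries. Gpr183 and Rora in both libraries, and Cd160 in the knockdown library, reached 50 CPM, the limit for comparison, only in Xcl1-high cells. A list of type 1 innate lymphoid cell and tissue residency genes summed to 1165 and 1105 CPM in the Ctla2a+ NK cells and 1448 and 1487 CPM in Xcl1-high cells. It gave 1217 and 1176 CPM in Ctla2a-negative cells and 1072 and 1214 CPM in Klrg1+ cells. Zfp683, the gene of the residency factor Hobit, had no UMI in the knockdown Ctla2a+ NK cells, which allows up to 1.48 CPM (3 UMIs). Xcl1-high cells had none of it in either library. Sult2b1 was higher than in Xcl1-high cells at 1.84-fold (1.37 to 2.49) and 1.58-fold (1.22 to 2.05), and Myb at 1.33-fold (1.06 to 1.67) and 1.42-fold (1.16 to 1.74). Myb was not called, and its detection at equal depth showed no ordered difference between these groups. Against Klrg1+ cells, Pmepa1 was 3.78-fold (2.33 to 6.53) and 4.16-fold (2.63 to 6.94) higher, and Cxcr4 was 1.59-fold (1.28 to 1.99) and 2.30-fold (1.84 to 2.91) higher. Pmepa1 in this comparison, and Sult2b1 against Xcl1-high cells, reached 50 CPM only in the Ctla2a+ NK cells. Against cycling cells, 30 of 2939 genes were higher (1.02%) and 178 lower (6.06%), 7.08% in all. The lower genes include all 8 compared genes of the melanoma list, which summed to 2467 and 2752 CPM in cycling cells against 395 and 368 CPM in the Ctla2a+ NK cells, and the part of tumour RNA in this comparison was not tested.

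Cells near the thresholds were looked at once. The 236 control and 107 knockdown Ctla2a+ NK cells with exactly 1 Ctla2a UMI had 11903 and 13346 CPM of Gzma, between the cells with none (16183 and 14739 CPM) and the 664 and 471 cells with 2 or more (8900 and 9653 CPM). Their Sult2b1 was 45.3 and 31.4 CPM, against 35.1 and 21.8 CPM with no Ctla2a UMI and 69.5 and 82.9 CPM with 2 or more. Across the Xcl1 threshold, the 257 and 162 cells with 1 UMI had 7780 and 7924 CPM of Gzma and the 161 and 103 with 2 UMIs, outside the rule, had 6614 and 4912 CPM. The 94 and 62 cells with 1 Klrg1 UMI had 12621 and 15397 CPM. Across the Ctla2a threshold, Gzma and Sult2b1 thus differed by degree in both libraries. Across the Xcl1 threshold, Gzma was lower just outside than just inside in both. For Klrg1 only cells outside the rule are given here, and no order was read.

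Within the Ctla2a+ NK cells, thinned to 1000 UMIs, the most variable genes were Ccl5, Malat1, Gzma, Cd74, Ccl4, Gzmb, Ccl3 and Fth1. The variance over the mean was 9.97 and 9.12 for the chemokine gene Ccl5 and 5.68 and 5.47 for Gzma, against a median of 1.03 over 2441 genes in each library. Cd74 reached 7.10 and 4.72 with 17.6% and 23.0% of its thinned UMIs in 1 cell. Cells were also ordered by their Ctla2a UMIs after thinning. Gzma was 10623 and 11956 CPM in cells with 0, 10965 and 11204 CPM with 1, 10422 and 9207 CPM with 2, and 8139 and 7967 CPM with 3 or more. Ctla2b was 219, 214, 297 and 289 CPM in the same order in the control, where the first and last intervals overlap (161 to 291 and 213 to 383), and 244, 272, 402 and 439 CPM in the knockdown library (173 to 333 and 330 to 573). Gzma was thus lowest in the cells with 3 or more Ctla2a UMIs in both libraries, and no order was read from Ctla2b.

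Knockdown and control Ctla2a+ NK cells were compared next. This addresses how the loss of Decr2 in tumour cells goes with the RNA of these host cells. Decr2 itself checks no label here, since the shRNA was in the tumour cells. Its UMIs were 13 (control) and 9 (knockdown) in the Ctla2a+ NK cells, a ratio of 0.782 (0.295 to 1.98). Of 3014 genes compared, 30 were at least 1.5-fold higher (0.995%) and 17 at least 1.5-fold lower (0.564%) in the knockdown library, with a median log2 ratio of 0.01 over all genes. Ctla2a, by which the cells were chosen, was 1486 and 1463 CPM, a ratio of 0.985 (0.937 to 1.03). Sult2b1 had a ratio of 1.17 (0.924 to 1.47), Car2 of 1.03 (0.938 to 1.14), Myb of 1.30 (1.07 to 1.58) and Pmepa1 of 1.38 (1.13 to 1.69), and none was called.

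Tsc22d3, which encodes the glucocorticoid-induced protein GILZ, was 141 CPM in the control and 268 CPM in the knockdown Ctla2a+ NK cells, a ratio of 1.90 (1.65 to 2.19). Other non-cycling NK cells had a ratio of 1.63 and T-gated cells of 1.44, so it was higher in the knockdown library beyond these cells. The remaining 3 compared genes of a glucocorticoid response list, Dusp1, Mt1 and Txnip, had ratios of 1.26, 1.27 and 1.22 in the Ctla2a+ NK cells and 0.952, 0.960 and 1.16 in the other NK cells. Its median log2 ratio was 0.32. Bcl2, which protects lymphocytes from apoptosis, was 304 and 488 CPM, a ratio of 1.60 (1.45 to 1.77), against 1.27 in other NK cells. It stood at 1.33 when the gate followed thinning to 1000 UMIs. Bach2, a transcription factor that restrains effector differentiation, was 33.6 and 64.0 CPM, a ratio of 1.91 (1.43 to 2.56), against 1.36. The T cell gene Cd3g was also among the 30 higher genes, at 34.5 and 55.2 CPM, a ratio of 1.60 (1.19 to 2.16), against 1.00 in other NK cells and 0.914 in T-gated cells. The part of T cell RNA in the other ratios was not tested. Bach2 and Cd3g reached 50 CPM, the limit for comparison, in the knockdown library alone. Fryl, Sec24c, a COPII coat subunit, and Tmem189 had ratios of 1.63, 1.89 and 1.70, against 1.21, 1.37 and 1.28 in other NK cells.

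Lower in the knockdown library were the inducible heat shock genes Hspa1b, at 467 and 265 CPM, and Hspa1a, at 627 and 404 CPM. These near copies had ratios of 0.568 (0.511 to 0.630) and 0.645 (0.591 to 0.703). T-gated cells had 0.449 and 0.458 and other NK cells 0.708 and 0.756, so the lower level was shared with cells outside the group. All 9 compared genes of a heat shock list were below 1, with 2 called and a median log2 ratio of -0.18. Klra7, an inhibitory Ly49 receptor gene with near copies, was 616 and 407 CPM, a ratio of 0.661 (0.606 to 0.720), against 0.794 in other NK cells. It was 0.828 when the gate followed thinning to 1000 UMIs. Hopx, Ppp1r14b and Rnaset2b had ratios between 0.623 and 0.627, and Lilrb4a, an inhibitory receptor gene, of 0.522 (0.379 to 0.712). With the wider T cell exclusion Lilrb4a was 1.04. S100a4 had a ratio of 0.672 (0.572 to 0.787), just inside the 1.5-fold limit, and with that exclusion it stood at 2.26.

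The farthest ratios rested in part on single cells. Ccr7, the receptor that guides cells to lymph nodes, went from 13 control UMIs to 118 knockdown UMIs in the Ctla2a+ NK cells, a ratio of 10.2 (5.77 to 19.8), but 1 knockdown cell held 79 of the 118. That cell had 12651 UMIs, above the median of 3370.5 in its group and library. It also held 259 UMIs of Cst3, 61 of Bcl2a1b, 207 of Cd74 and 109 of H2-Aa, beside 1 of Ncr1, 7 of Klrb1c, 3 of Ctla2a and 95 of Gzma. Without the cell holding most UMIs of a gene, the ratio was 3.67 for Ccr7, 1.11 for Cst3 and 1.25 for Bcl2a1b. Spp1, osteopontin, had a ratio of 0.230 (0.155 to 0.332), with 80 of its 172 control UMIs in 1 cell and 0.405 without the top cells. Gzmc had a ratio of 1.85 (1.44 to 2.38), with 68 of 170 knockdown UMIs in 1 cell and 1.28 without the top cells, and was 0.473 in other NK cells.

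**Figure D5:**
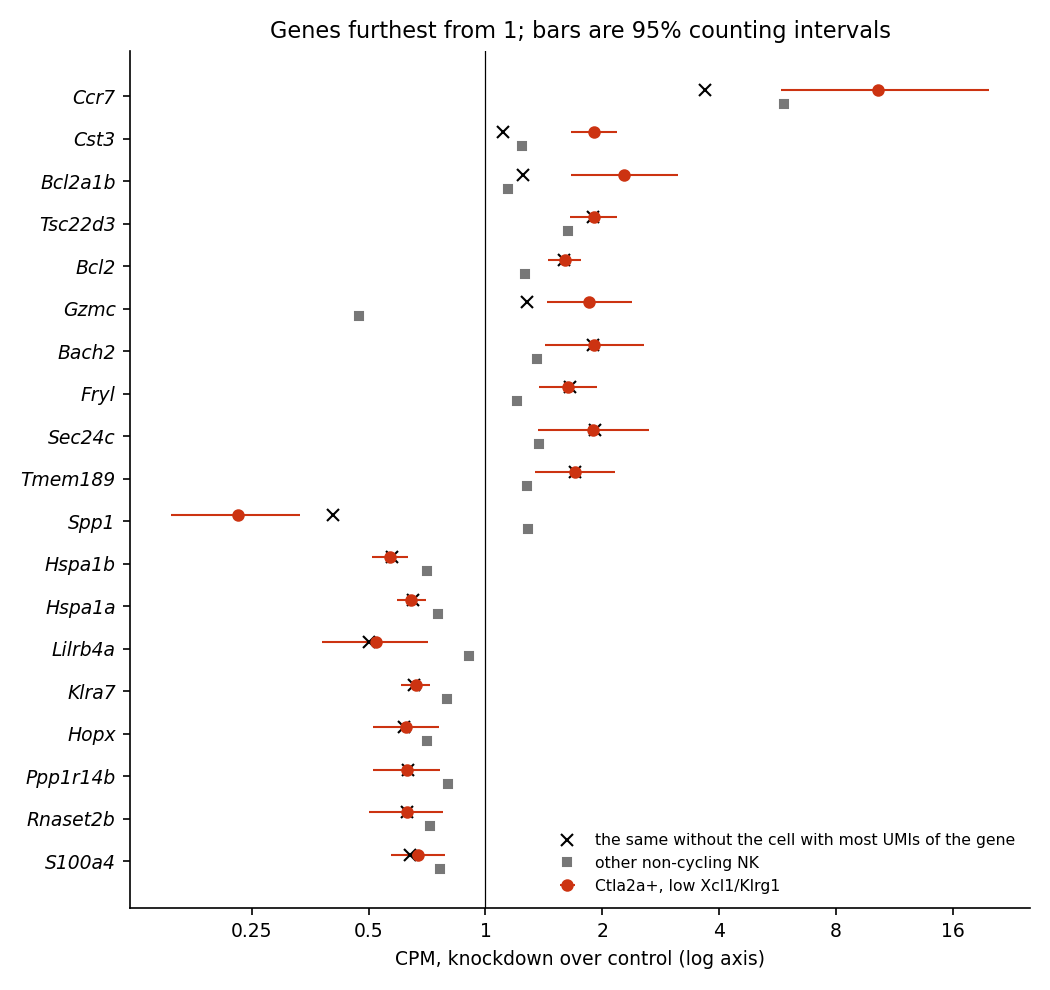
Ratio of CPM, knockdown over control, on a log axis for the genes farthest above 1 (10 genes) and farthest below 1 (9 genes) by the interval bound nearest 1 in Ctla2a+ NK cells (red, with exact conditional binomial 95% intervals), the same without the cell that held most UMIs of the gene (crosses), and in other non-cycling NK cells (grey squares). Crosses leave the interval for Ccr7, Cst3, Bcl2a1b, Gzmc and Spp1, and Tsc22d3 at 1.90 and Hspa1b at 0.568 keep theirs.

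Of the lists compared between libraries, the 6 TGF-beta response genes Smad7, Smad3, Skil, Tgif1, Pmepa1 and Bhlhe40 were all above 1 with none called, at a median log2 ratio of 0.30 against 0.01 over all genes. Smad7, an inhibitor of the pathway, was 428 and 519 CPM, a ratio of 1.21 (1.11 to 1.32), against 1.26 in other NK cells, and Skil, a SMAD corepressor, was 1.29 (1.06 to 1.56) against 1.50. For Smad7 and Skil, the knockdown over control ratio was thus no higher in the Ctla2a+ NK cells than in the other NK cells. Of 12 glycolysis and hypoxia genes, 10 were below 1 with none called (-0.17); Pkm, a pyruvate kinase, had a ratio of 0.774 (0.699 to 0.857) and Aldoa, an aldolase, 0.862 (0.793 to 0.937). Of 23 lineage transcription factors, 19 were above 1 and 2 called higher, Bach2 and Nr4a3, at a median of 0.17. Of the mature NK list, 9 of 10 compared genes were above 1 (0.13) and of the immature list 2 of 7, Emb and Tcf7 (-0.14), with none called in either. Of 12 cytotoxic effector genes, 8 were above 1 (0.07), with Gzmc as the called one. Of 10 compared genes of a list named for inhibitory receptors, 6 were below 1 and Klra7 and Lilrb4a called lower (-0.16). The 4 above 1 were Klra4, Klra9, Klre1 and Klri2, and not every gene of this list encodes an inhibitory receptor. The numbers called in these lists stand beside 1.56% of all genes called in either direction.

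In the other groups, 0.442% of genes were past 1.5-fold between libraries in the pooled other non-cycling NK cells, 1.47% in Xcl1-high cells, 2.47% in cycling cells, 6.55% in Klrg1+ cells and 10.8% in Ctla2a-negative cells. These groups differ in their number of cells, and the shares were not compared.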

How the data were processed

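Single-cell RNA was measured in 2 libraries, 1 per group. The deposited counts were UMIs per gene and barcode. Per the submitters' processing notes, the authors used Cell Ranger 6.1.2, mm10 and Seurat 4.3, and per the file headers the matrices are Cell Ranger output. The files held whole counts of 32285 genes with no normalisation; 32158 were located in GENCODE M21 (GRCm38). No doublets were removed before the gate, and Scrublet in scanpy 1.11.5 was run as an alternative at 0.8% per 1000 barcodes.

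UMIs were summed per library and cell group and divided by that group's total (CPM), so the depth behind a level is the group's sum, 2292503 UMIs in control and 2030588 in knockdown Ctla2a+ NK cells. Levels carry exact Poisson, shares Clopper-Pearson, differences of shares Newcombe and ratios exact conditional binomial intervals (scipy 1.17.1, statsmodels 0.14.6), all at 95%. UMIs of 1 cell are not independent, and tumours were not replicated, so these intervals are too narrow for the conditions. Genes were compared with at least 30 UMIs over both sides and 50 CPM in 1, leaving out the 12 genes of the rule. List medians used a pseudocount of 10 CPM. Thinning and the division of UMIs used fixed seeds (1 and 2).

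T-gated cells had at least 2 UMIs of Cd3e, Cd3d and Cd8b1, myeloid-gated cells at least 5 of Lyz2, and each had none of the other gates' genes. The members, the 34 gene lists and the rules were chosen with earlier results of these data known. Named genes were the genes of the rule, the 4 given markers, the 15 farthest each way against the other NK cells, the 10 farthest each way between libraries, the 8 most variable and up to 4 with and 2 against the median of a list; Klra4, Pmepa1 and Qrfp came in this way. Gpr183, Cd160, Rora, Ltb, Itgam and Ctla2b and genes of a list beyond that number were named after their values were seen. A gene among the 10 lower between libraries is not reported here. On simulated counts for the comparison of knockdown with control in these cells (2824 genes), 95.2% of intervals held the true ratio. All 66 genes changed 2.0-fold and 49.3% of 67 changed 1.5-fold were called, and none of 2624 unchanged genes was. The counts were drawn with Poisson error alone, as the intervals assume, and without variation between cells or tumours. These shares therefore give no rate of false calls for the data. RefSeq windows of Car2 and Pmepa1 were not used here.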

Additional observations from a re-analysis of the deposited data

Results flagged for a closer look

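Gzmc went opposite ways between the libraries in different NK cells: its knockdown over control ratio was 1.85 in Ctla2a+ NK cells and 0.473 in the other non-cycling NK cells. The difference between these ratios was not tested, and 1 knockdown cell held 40.0% of the Gzmc UMIs of the Ctla2a+ NK cells.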

How the results depend on the processing

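No paired analysis was possible because each group was 1 library. Settings with 2000 UMIs, without shared barcodes, without Cd74 cells and with 50 CPM in both groups were chosen after the data had been seen.

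Shares of kept control and knockdown cells were 6.73% and 6.31% with Ctla2a of 2 or more, 8.11% and 6.47% with no Lyz2, 6.52% and 6.04% with Ncr1 and Klrb1c of 2 or more, 6.51% and 5.57% with no Xcl1, 10.8% and 9.37% with cycling cells kept, 1.74% and 0.951% with the wider T cell exclusion and 10.9% and 9.46% without cells with 5 or more Cd74 UMIs, which also left the denominator. They were 8.25% in the control after thinning to 1000 UMIs and 10.7% in the knockdown after 2000. The difference was -0.414 points with Ctla2a of 2 or more, -0.480 with Ncr1 and Klrb1c of 2 or more, -0.355 at 1000 UMIs and 1.01 at 2000. Of non-cycling NK cells, the shares were 28.7% and 32.2% with Ctla2a of 2 or more, 27.8% and 28.4% with no Xcl1 and 44.1% and 46.8% at 2000 UMIs.

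Between libraries, the 30 higher genes became 49 with Ctla2a of 2 or more, 50 with Ncr1 and Klrb1c of 2 or more, 46 with no Xcl1, 52 with equal weight per cell, 15 and 14 with the gate after thinning to 1000 and 2000 UMIs, 276 with the wider T cell exclusion and 1585 with no minimum level. The 17 lower genes became 26 with Ncr1 and Klrb1c of 2 or more, 31 with no Xcl1, 35 with cycling cells kept, 241 with the wider exclusion and 1363 with no minimum. Fewer cells (172 and 71) or UMIs pass in the last settings of each series.

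Against other non-cycling NK cells, the 4 higher genes became 2 with no Xcl1, 1 at 1000 and at 2000 UMIs, 18 with the wider exclusion and 401 with no minimum. The 7 lower became 3 with no Lyz2 and without Cd74 cells, 14 with no Xcl1, 11 with doublets removed and at 1000 UMIs, 12 without each gene's top cell, 30 with the wider exclusion and 310 with no minimum. Against Xcl1-high cells, the 6 higher became 3 with no Xcl1 and at 1000 UMIs, 19 with the wider exclusion and 385 with no minimum, and the 12 lower became 19 with doublets removed, 28 and 6 at 1000 and 2000 UMIs and 294 with no minimum. Against Klrg1+ cells, the 18 higher became 48 at 1000 UMIs and 471 with no minimum, and the 21 lower 36 with Ctla2a of 2 or more, 32 with equal weight, 72 and 38 at 1000 and 2000 UMIs and 334 with no minimum.

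Directions turned as follows, and the cause was not tested. At 1000 UMIs, the knockdown ratios of Qrfp and Ms4a4c to other NK cells were 0.977 and 1.16, and of Serpinb9b, a granzyme inhibitor, to Xcl1-high cells 0.957. At 2000 UMIs, the knockdown over control ratios of Cst3 and Gzmc were 0.973 and 0.699 and the control ratio of Cxcl10 was 1.25. With Ncr1 and Klrb1c of 2 or more, the control ratios of Cd74, Cxcl10 and H2-Aa were 1.12, 1.09 and 1.26 and the knockdown ratio of Cd74 was 1.62. With the wider exclusion, Spp1 and Lilrb4a were 2.54 and 1.04 between libraries, Qrfp and Klrc1 in the control 0.9998 and 1.10 and Cxcl10 in the knockdown 1.18 against other NK cells, and Klrc1 and Gzmb in the control 1.10 and 0.995 against Xcl1-high cells. With cycling cells kept, Gzmc was 0.668 between libraries, Cxcl10 in the control 1.07 and Cma1 in the knockdown 1.10 against Klrg1+ cells. Without Cd74 cells, H2-Aa in the control was 1.06. Of the ratios of named genes over all settings, 276 between libraries kept, 58 moved and 5 reversed, and against other NK cells 876, 166 and 12. A turn was counted only for ratios past 1.5-fold: S100a4 between libraries, at 0.672, stood at 2.26 with the wider exclusion. All 30 detection shares at equal depth moved with 2000 UMIs, and of 60 held-out levels 14 moved with another random division.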
